A study of Mus musculus with 22 samples.

Results

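Junctions with long N additions were the deposited immunoglobulin heavy chain (Igh) sequences from mouse kidney B cells whose 2 N fields, N1 between V and D and N2 between D and J, held together 10 nucleotides (nt) or more. They were chosen from all sequences with a numeric D segment start, and an empty N field counted as 0. They made up 1416 of 16785 sequences with a D segment, or 8.44%, and the whole series held 17178 sequences. Counted once per junction, V and J segment within a library, they formed 1018 of 6575 clonotypes, or 15.5%. These are called long-N sequences and long-N clonotypes here, and the other 5557 clonotypes with a D segment are called other clonotypes. The study sorted live B cells from the kidneys of wild-type C57BL/6 mice on day 56 after the bladder had been inoculated 2 times with PBS (6 mice) or with the uropathogenic Escherichia coli (UPEC) strain UTI89 (5 mice). Anti-CD45 antibody given into a vein shortly before death marked the intravascular cells, so each mouse gave an extravascular and an intravascular library, 22 in all. The mice were female, aged 8 to 12 weeks unless stated otherwise in the methods, and each replicate was a separate mouse. Libraries held 244 to 2134 sequences and 936 to 18956 reads, and a sequence here is a distinct amplified sequence with at least 2 reads, not a cell. Only Igh transcripts were amplified, so the sorted cell type could not be checked against other markers, and fewer cells of a kind and less RNA per cell cannot be told apart.

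A heavy chain gene is assembled from a V, a D and a J segment, and the third complementarity-determining region (CDR3) of the antibody spans the joins. Terminal deoxynucleotidyl transferase (TdT) adds N nucleotides without a template at the V-D and D-J ends, and it favours G and C. The enzyme is scarce in fetal B lymphopoiesis and abundant in adult bone marrow, so joins without N are known from fetal-derived B-1a cells and joins rich in N from adult-derived B cells. Ighv11-2 and Ighv12-3, which make phosphatidylcholine-binding B-1a receptors, are known for short, germline-like joins.

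The junctions below run from the conserved cysteine codon to the J anchor codon, 5′ to 3′, with N1 and N2 in capitals and the remaining V, P, D and J bases in lower case. The first 4 were the largest long-N clonotypes of each group, shown as the most repeated junctions with long N additions.
Ighv3-1 with Ighd6-3 and Ighj2, PBS mouse 3 extravascular: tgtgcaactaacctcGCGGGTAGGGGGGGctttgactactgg
Ighv3-8 with Ighd1-1 and Ighj3, PBS mouse 1 intravascular: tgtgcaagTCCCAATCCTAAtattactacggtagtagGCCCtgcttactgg
Ighv1-58 with Ighd1-1 and Ighj2, UPEC mouse 5 extravascular: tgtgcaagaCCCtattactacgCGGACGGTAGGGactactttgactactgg
Ighv3-8 with Ighd2-3 and Ighj3, UPEC mouse 3 intravascular: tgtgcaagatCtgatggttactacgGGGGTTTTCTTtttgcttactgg
The insert of PBS mouse 3 held 14 N nt, all of them in N2, and ended in a run of G. It was read as 49 sequences and 418 reads, which was 2.87% of that library. The UPEC mouse 5 clonotype had 3 nt in N1 and 12 nt in N2, and it was also read as 49 sequences, with 447 reads and 5.73% of its library. The largest long-N clonotypes of the intravascular groups were smaller, with 7 sequences in PBS mouse 1 and 11 sequences in UPEC mouse 3. None of these 4 was the largest clonotype of its library. They ranked 8, 6, 2 and 6 by number of sequences in the order printed.

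The next junction was the largest long-N clonotype present in both compartments of 1 mouse, and the one after it held the longest N insert in which no stretch of germline J was found.
Ighv3-6 with Ighd1-1 and Ighj4, UPEC mouse 4 both compartments: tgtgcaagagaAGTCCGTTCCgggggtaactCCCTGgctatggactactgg
Ighv5-12 with Ighd2-4 and Ighj4, PBS mouse 6 extravascular: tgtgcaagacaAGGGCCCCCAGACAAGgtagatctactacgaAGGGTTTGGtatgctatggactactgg
The shared clonotype had 22 extravascular and 8 intravascular sequences. The longest such insert had 16 nt in N1 and 9 nt in N2, 25 nt together, in a CDR3 of 21 amino acids, and it rested on 1 sequence with 2 reads.

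A further set shows junctions whose annotated N2 spelled the start of the J segment itself. In each pair the second junction differed from the first at 1 base near the J anchor, and the annotation then called the J bases before it N2.
Ighv12-3 with Ighd2-3 and Ighj1, PBS mouse 1 extravascular, annotated with 0 N nt: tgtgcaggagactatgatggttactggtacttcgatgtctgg
Ighv12-3 with Ighd2-3 and Ighj1, PBS mouse 1 extravascular, annotated with 13 N nt: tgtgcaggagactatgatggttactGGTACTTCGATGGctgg
Ighv3-1 with Ighd2-4 and Ighj4, UPEC mouse 5 extravascular, annotated with 10 N nt: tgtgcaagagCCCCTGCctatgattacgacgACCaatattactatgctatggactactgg
Ighv3-1 with Ighd2-4 and Ighj4, UPEC mouse 5 extravascular, annotated with 34 N nt: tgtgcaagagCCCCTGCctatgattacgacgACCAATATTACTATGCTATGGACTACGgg
Counted from the first base of the junction, the first pair differed by T38G and the second by T58G. The Ighv12-3 junction without N had 215 sequences and 1950 reads in PBS mouse 1, and its T38G neighbour had 1 sequence and 12 reads. The junction with 34 N nt, the longest annotated insert of all, had 1 sequence with 2 reads, and its neighbour had 8 sequences with 82 reads. Matched to the germline J segments of GENCODE vM21, 104 of the 1416 long-N sequences and 99 of the 1018 long-N clonotypes held 8 nt or more of their own J inside an N field. Other junctions have at most 9 N nt by the rule, so only those with 8 or 9 N nt could hold such a stretch. Of these 99 clonotypes, 73 were extravascular clonotypes of PBS mice, 14 extravascular clonotypes of UPEC mice, and 6 in each intravascular group. PBS mouse 1 extravascular held 30 of them among its 46 long-N clonotypes. Several of the values below are therefore also given without these junctions, or with each clonotype merged into a neighbour with more reads that lay 1 nt away.

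Among sequences with a D segment, 3743 had no N nt at all and the counts fell from 666 sequences with 9 N nt to 335 with 10 N nt. Clonotypes with 9 N nt had a mean CDR3 of 13.04 amino acids and 1.84 sequences each, and clonotypes with 10 N nt had 13.5 amino acids and 1.31 sequences each. Between libraries the mean N content of long-N clonotypes varied little, at 12.9 nt ± 0.443 (SD, n = 11 libraries) in the extravascular and 12.3 nt ± 0.298 in the intravascular fraction, against 4.14 nt ± 0.450 and 4.49 nt ± 0.181 in other clonotypes. These lengths follow from the rule and were not tested. As annotated, N2 was the longer field in the extravascular libraries, with 7.09 nt against 5.83 nt in N1, but without junctions holding germline J it was the shorter one, with 5.77 nt against 6.52 nt. In the intravascular libraries N1 was longer, with 6.96 nt against 5.39 nt in N2 as annotated and 7.05 nt against 5.21 nt without those junctions. The annotated J stretch of long-N clonotypes was 12.6 nt in the extravascular and 15.0 nt in the intravascular fraction, and the extravascular range reached down to 7.57 nt in PBS mouse 1, the library with most germline J inside N.

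**Figure D1:**
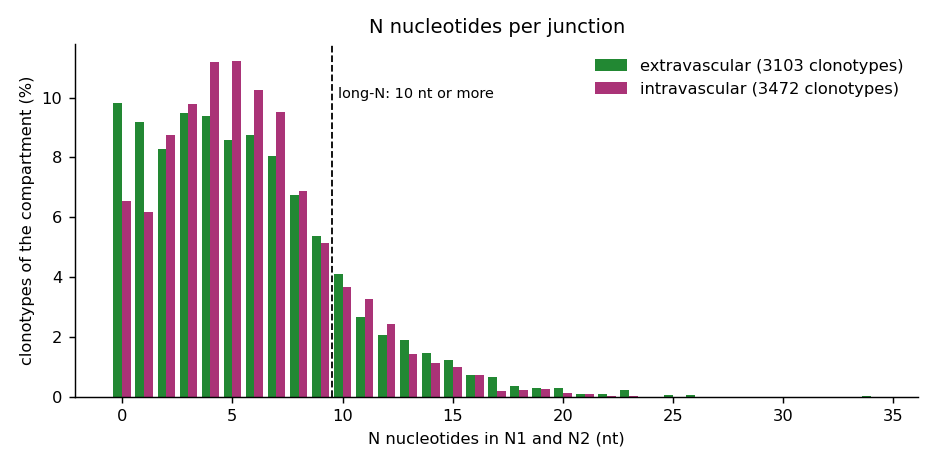
Percentage of extravascular (3103) and intravascular (3472) clonotypes at each number of N nucleotides, with the long-N threshold as a dashed line. Counts fall steadily through the threshold, and the few inserts beyond 23 nt are extravascular.

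The first comparison asked how large a share of each library long-N sequences took in tissue and in blood vessels. In PBS mice their share was lower in the extravascular fraction before adjustment, at 5.69% ± 1.95 (SD, n = 6) of sequences with a D segment against 11.7% ± 1.68 (SD, n = 6) in the intravascular fraction. The extravascular values ran from 2.26% (95% Wilson interval 1.71 to 2.98) in mouse 1, with a median of 6.01%, to 8.22% (6.95 to 9.70) in mouse 3. The intravascular values ran from 8.90% (6.88 to 11.4) in mouse 6, with a median of 11.8%, to 14.1% (10.8 to 18.2) in mouse 5. Every PBS extravascular library lay below every PBS intravascular library. The difference was -5.98 percentage points (SD 2.89) and lower in 6 of 6 mice (exact signed-rank test, two-sided p = 0.03125, the smallest p that 6 pairs allow), and the Benjamini-Hochberg adjusted p over the 24 single-value tests was 0.075. Intervals cover counting error only, because amplified sequences are not independent cells. Depth differed with compartment and treatment. Libraries averaged 1343 sequences in PBS extravascular, 482 in PBS intravascular, 726 in UPEC extravascular and 520 in UPEC intravascular groups. Whether depth contributed to differences in these shares was not tested. The p was no longer under 0.05 at a threshold of 8 N nt (difference -7.31, p = 0.156) or 12 N nt (-2.70, p = 0.0625), with P nucleotides added (-7.58, p = 0.0625), without sequences that had a short V (-4.69, p = 0.0625), and when sequences 1 nt from another of their clonotype were merged, which moved the difference to -2.76 (p = 0.219), all by the exact signed-rank test. When whole clonotypes 1 nt apart were merged, the shares were 3.72% ± 1.80 and 11.4% ± 1.87 and the difference -7.73 points, lower in 6 of 6 mice (exact signed-rank p = 0.03125). Without junctions holding germline J it was -6.65 points, also lower in 6 of 6 mice (exact signed-rank p = 0.03125).

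After UPEC the extravascular libraries fell into a high and a low set. In the high set, mouse 1 rested on the smallest library of the series, with 244 sequences and 936 reads. Long-N sequences made up 13.6% in mouse 1, 4.20% in mouse 2, 5.20% in mouse 3, 14.0% in mouse 4 and 17.8% in mouse 5. The same mice had 15.1%, 9.85%, 14.9%, 9.32% and 11.98% in their intravascular libraries. Mice 4 and 5 were thus higher in tissue and mice 1, 2 and 3 lower. The compartment difference was -1.27 percentage points over the 5 mice (exact signed-rank p = 0.8125; 5 pairs cannot go below 0.0625). Extravascular libraries of UPEC mice averaged 5.25 points above those of PBS mice (10.9% ± 5.95, SD, n = 5), and 3 of the 5 lay above all PBS extravascular libraries (exact Mann-Whitney p = 0.429). This difference was 2.85 points at a threshold of 12 N nt (exact Mann-Whitney p = 0.537). With variants of 1 nt merged within clonotypes it was 1.60 points (exact Mann-Whitney p = 0.662). Intravascular libraries averaged 12.2% ± 2.71 after UPEC, 0.545 points above PBS (exact Mann-Whitney p = 0.662). The compartment difference itself changed by 4.71 points from PBS to UPEC, which did not pass an exact permutation of the treatment labels (p = 0.156). Without UPEC mouse 3 the change was 6.81 points (exact permutation p = 0.0333). With all mice it was 2.50 points at 8 N nt (exact permutation p = 0.647) and 2.36 points at 12 N nt (exact permutation p = 0.284). With variants of 1 nt merged within clonotypes it was 1.90 points (exact permutation p = 0.509). The largest long-N clonotype held 32.5% of the long-N sequences of UPEC mouse 5 and 21.6% of those of UPEC mouse 4, and 6.25% of those of UPEC mouse 1. In PBS mouse 3 the corresponding share was 38.6%.

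**Figure D2:**
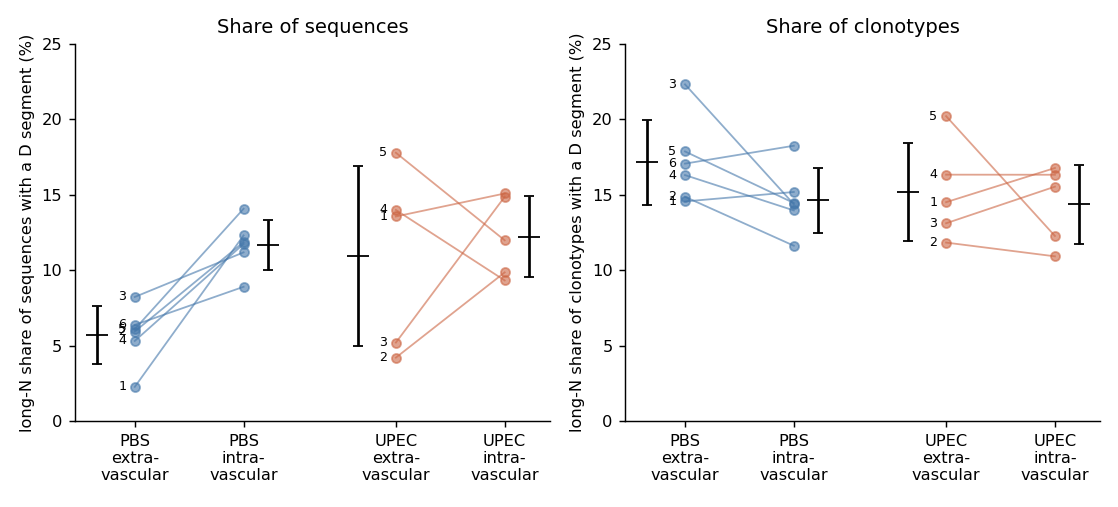
Long-N share (%) of sequences (left) and of clonotypes (right) in each library, one line per mouse joining its extravascular and intravascular library, with the mouse number beside the extravascular value and group mean ± SD in black. In sequences all 6 PBS lines rise toward the intravascular side, and in clonotypes no common direction is seen.

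Counted once per clonotype, no difference between compartments passed the test. Long-N clonotypes made up 17.2% ± 2.83 of clonotypes in PBS extravascular, 14.6% ± 2.15 in PBS intravascular (SD, n = 6 each), 15.2% ± 3.26 in UPEC extravascular and 14.4% ± 2.61 in UPEC intravascular libraries (SD, n = 5 each). The groups overlapped throughout, from 10.9% in UPEC mouse 2 intravascular to 22.3% in PBS mouse 3 extravascular. The difference in PBS mice was 2.52 points (exact signed-rank p = 0.156) and that in UPEC mice 0.834 points (exact signed-rank p = 1). Extravascular clonotypes differed by -1.97 points between UPEC and PBS (exact Mann-Whitney p = 0.247) and intravascular ones by -0.276 points (exact Mann-Whitney p = 0.931). Without short-V sequences the PBS difference was 3.96 points, higher in 5 of 6 mice (exact signed-rank p = 0.0625). The sign of the PBS difference turned when near-identical junctions were merged. Of the 313 long-N clonotypes in PBS extravascular libraries, 178 (56.9%) lay 1 nt from a clonotype of the same library, V and J with more reads, against 17 of 271 (6.27%) in PBS intravascular, 66 of 199 (33.2%) in UPEC extravascular and 33 of 235 (14.0%) in UPEC intravascular libraries. Among other clonotypes of PBS extravascular libraries the share was 583 of 1513 (38.5%). With these merged, 724 long-N clonotypes of 5364 remained, the PBS difference turned to -1.94 points (exact signed-rank p = 0.4375), and the extravascular difference between UPEC and PBS was 0.0774 points.

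**Figure D3:**
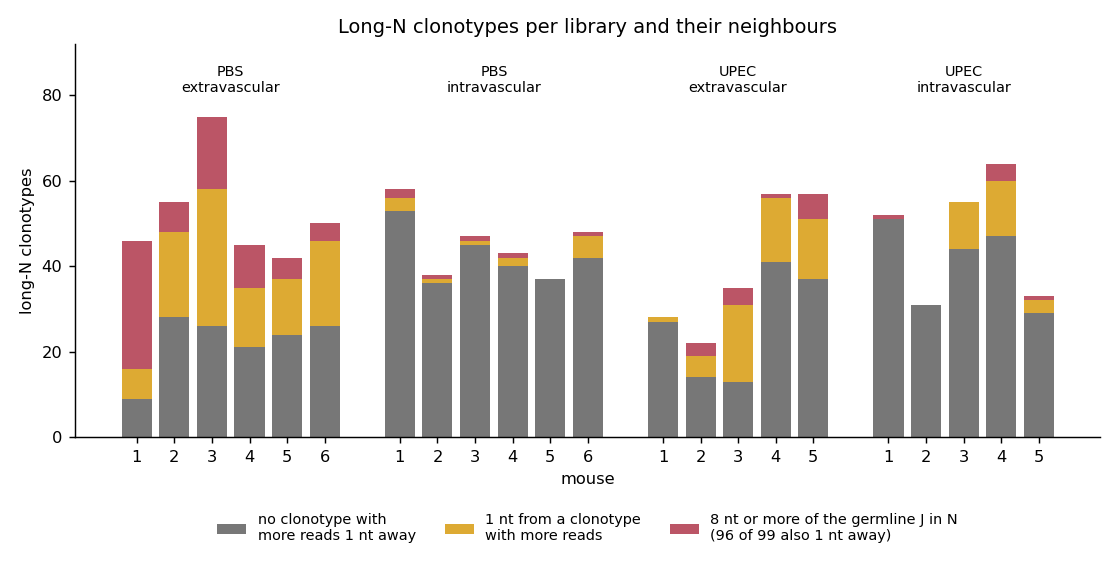
Number of long-N clonotypes in each library, split into those with 8 nt or more of the germline J inside an N field, other clonotypes 1 nt from one with more reads, and the rest. The first class reaches 30 of 46 in PBS mouse 1 extravascular, and the last class is the largest in every intravascular library.

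Long-N clonotypes were small. In the extravascular libraries they held 1.47 ± 0.451 sequences each, against 3.98 ± 1.68 for other clonotypes of the same library (SD, n = 11). Long-N clonotypes ranged from 1.04 sequences in PBS mouse 1 to 2.56 in UPEC mouse 5, and other clonotypes from 1.24 in UPEC mouse 1 to 7.69 in PBS mouse 1. The long-N value was the lower one in 11 of 11 mice, with a mean difference of -2.51 (exact signed-rank p = 0.000977, the smallest p that 11 pairs allow, adjusted p = 0.00586). The difference was smaller in UPEC mice (-1.31, lower in 5 of 5) than in PBS mice (-3.51, lower in 6 of 6), a contrast that was not tested. In the intravascular libraries long-N clonotypes held 1.22 ± 0.138 and other clonotypes 1.59 ± 0.504 sequences, lower in 10 of 11 mice by 0.364 on average (exact signed-rank p = 0.00488, adjusted p = 0.0167). PBS mouse 2 was the exception, with 1.24 against 1.18. With near-identical sequences within a clonotype merged, the intravascular difference was -0.177, lower in 10 of 11 mice (exact signed-rank p = 0.00293). Over all libraries 89.3% of long-N clonotypes and 82.0% of other clonotypes were a single sequence, and 23 long-N clonotypes (2.26%) reached 5 sequences or more, against 5.24% of other clonotypes. At 10 sequences or more there were 6 extravascular and 1 intravascular long-N clonotypes. The extravascular difference stayed below 0 in 11 of 11 mice when all libraries were brought to the depth of the smallest (-1.60) and when near-identical sequences within a clonotype were merged (-0.879). It was -4.31, again lower in 11 of 11 mice, when clonotypes 1 nt apart were merged. PBS mouse 1 weighed most on that mean, with 1.11 sequences per long-N and 20.7 per other extravascular clonotype after merging.

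**Figure D4:**
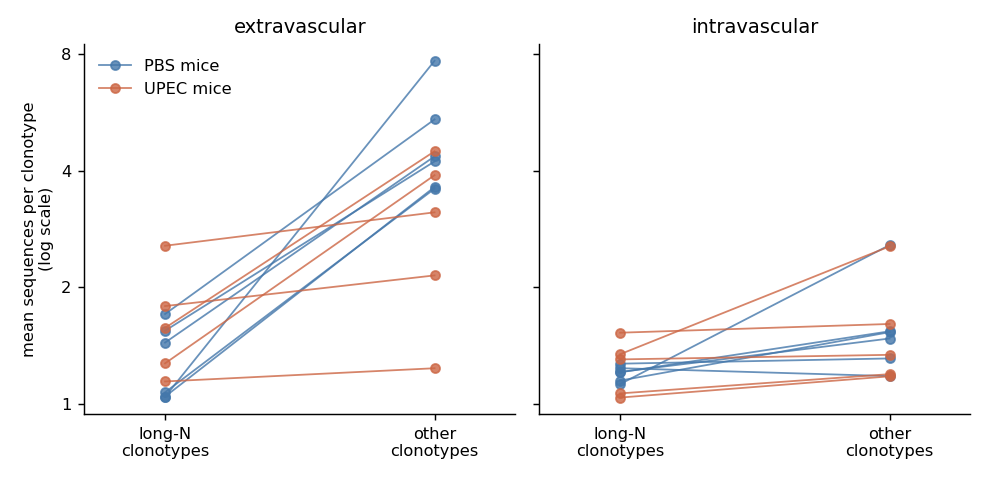
Mean number of sequences per clonotype (log scale) for long-N and other clonotypes of each library, one line per mouse, extravascular left and intravascular right. All 11 extravascular lines and 10 of 11 intravascular lines rise from long-N to other clonotypes.

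Long-N clonotypes used 51 of the 80 V segments seen. The 10 most used were Ighv3-8 (163 clonotypes), Ighv3-1 (141), Ighv1s22 (131), Ighv12-3 (87), Ighv3-6 (83), Ighv1-48 (57), Ighv5-17 (35), Ighv1-58 (29), Ighv13-2 (26) and Ighv15-2 (26). Ighv3-8 (GRCm38 chr12:114322327-114322801, minus strand, a functional V gene in GENCODE vM21) had the most long-N clonotypes over all libraries, with 17.2% of its 948 clonotypes long-N. In the extravascular libraries Ighv12-3 and Ighv3-8 took similar mean shares of long-N clonotypes, 15.1% and 14.5%, and with near-identical clonotypes merged Ighv1s22 (17.3% extravascular, 18.8% intravascular) stood above Ighv3-8 (4.84% and 15.7%). Segment shares were compared between long-N and other clonotypes of the same library with an exact signed-rank test over 11 mice and Benjamini-Hochberg adjustment over the segments tested. In the extravascular libraries 4 of 32 segments, or 12.5%, passed an adjusted p of 0.05, and in the intravascular libraries 10 of 31, or 32.3%.

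Ighv11-2 was rare among long-N clonotypes. It made up 0.954% ± 2.01 of extravascular long-N clonotypes and 3.68% ± 1.73 of other clonotypes (SD, n = 11). It came out lower in 11 of 11 mice (exact signed-rank p = 0.000977, adjusted p = 0.0156). However, its long-N clonotypes occurred in only 4 of the 22 libraries, and where the long-N share is 0 the direction in a mouse is fixed. No lower share is therefore read from this test. As a count, 6 of its 144 clonotypes (4.17%) were long-N, against 15.5% of all clonotypes with a D segment. Of these 6, 4 had germline J inside N. With near-identical clonotypes merged it fell under the filter of 5 clonotypes per library and was not tested. Ighv12-3 (chr12:114366521-114366954, minus strand), the other phosphatidylcholine-type segment, had 87 long-N clonotypes among 544 (15.99%), of which 53 were in PBS extravascular and 23 in UPEC extravascular libraries, and 44 of the 87 had germline J inside N. Its extravascular share of long-N clonotypes, 15.1% ± 16.8, did not differ from its share of other clonotypes, 12.7% ± 10.0, by this test (exact signed-rank, adjusted p = 0.723). With near-identical clonotypes merged it came out lower in 11 of 11 mice, at 0.337% ± 1.12 against 4.95% ± 4.68 (exact signed-rank p = 0.000977, adjusted p = 0.0225). Most libraries then held no long-N clonotype of this segment, which fixes the direction there, so no lower share is read from this test. In the intravascular libraries, where few such neighbours were found, Ighv12-3 came out lower as annotated, at 2.21% ± 2.33 against 4.27% ± 2.01 (10 of 11 mice, exact signed-rank adjusted p = 0.0265). Its intravascular long-N clonotypes numbered 3 in PBS mice, where the median share was 0%, and 8 in UPEC mice. In libraries at 0 the direction is fixed, so no lower share is read here either. Without short-V sequences it was at 3.07% against 4.76% and not called (exact signed-rank adjusted p = 0.0977).

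The V segments called as more frequent among long-N clonotypes were read from a short stretch of V. Ighv1s22 made up 8.25% ± 4.59 of extravascular long-N clonotypes against 4.19% ± 3.25 of others (higher in 10 of 11 mice and equal in 1, exact signed-rank adjusted p = 0.0208), and 17.3% ± 7.03 against 6.49% ± 2.46 in the intravascular libraries (higher in 11 of 11, exact signed-rank adjusted p = 0.0265). With near-identical clonotypes merged, the extravascular shares of Ighv1s22 were 17.3% and 5.74% (exact signed-rank adjusted p = 0.0225). Ighv1-48 was higher in the intravascular libraries, at 7.02% ± 3.75 against 2.49% ± 1.06 (10 of 11 mice, exact signed-rank adjusted p = 0.0265). The annotation gave Ighv1s22 and Ighv1-48 to sequences whose V region was 55 and 56 nt long at the median, all of them under 100 nt, whereas V regions of 100 nt or more had a median of 275 nt. These names therefore rest on the last bases of V. In GENCODE vM21 Ighv1-48 is a pseudogene. Such short-V clonotypes numbered 762, and 225 of them were long-N. Within libraries the long-N share was 30.6% ± 7.98 of short-V and 11.95% ± 1.72 of full-length V clonotypes in the intravascular fraction (higher in 11 of 11 mice, difference 18.7 points, exact signed-rank p = 0.000977), and 26.7% ± 7.33 against 15.2% ± 3.19 in the extravascular fraction (difference 11.5 points, exact signed-rank p = 0.00195). At a threshold of 12 N nt the extravascular difference was 5.36 points (exact signed-rank p = 0.147). This split by V length was chosen after the data were seen. Short-V clonotypes made up 13.5% ± 4.06 of intravascular and 9.53% ± 5.01 of extravascular clonotypes.

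Among segments read at full length, Ighv3-6 was lower among intravascular long-N clonotypes, at 8.97% ± 4.47 against 13.9% ± 3.29 (10 of 11 mice, exact signed-rank adjusted p = 0.0265). Ighv10-1, Ighv3-5 and Ighv5-6 also came out lower there, at 0.429%, 1.03% and 0.982% against 1.94%, 2.80% and 2.85% of other clonotypes (exact signed-rank adjusted p = 0.0265, 0.0303 and 0.0265). Their intravascular long-N clonotypes numbered 2, 4 and 4 in PBS mice and 0, 2 and 1 in UPEC mice. In libraries at 0 the direction is fixed, so no lower share is read for these segments. Without short-V sequences none of the 28 intravascular segments tested passed, against 10 with them. The Ighv1s22 and Ighv1-48 names drop out of that setting, and the differences of the full-length segments stayed of similar size, such as -1.58 points for Ighv10-1 and -1.74 points for Ighv5-6 (exact signed-rank adjusted p = 0.0766 each), whereas that of Ighv3-6 went from -4.94 to -3.21 points. The intravascular count also rested on single mice, with 0 called without UPEC mouse 5, 5 without PBS mouse 5 and 6 without UPEC mouse 1 or mouse 2. The extravascular calls of Ighv11-2, Ighd2-4 and Ighd3-1 remained among the 3 called of 29 under that setting. Segments of long-N clonotypes were also compared between compartments. Of 16 tested, 0 passed (0%) with the exact signed-rank test and 2 had an unadjusted p under 0.05, Ighv12-3 (15.1% extravascular, 2.21% intravascular) and Ighv1s22 (8.25% and 17.3%), both with p = 0.0137 and adjusted p = 0.109. With near-identical clonotypes merged, Ighv1s22 was at 17.3% against 18.8% (exact signed-rank p = 0.638), Ighv12-3 fell under the filter, and the segments with an unadjusted p under 0.05 were Ighv3-8 (4.84% extravascular, 15.7% intravascular, adjusted p = 0.0684) and Ighv3-1 (4.60% and 10.8%, adjusted p = 0.0957).

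**Figure D5:**
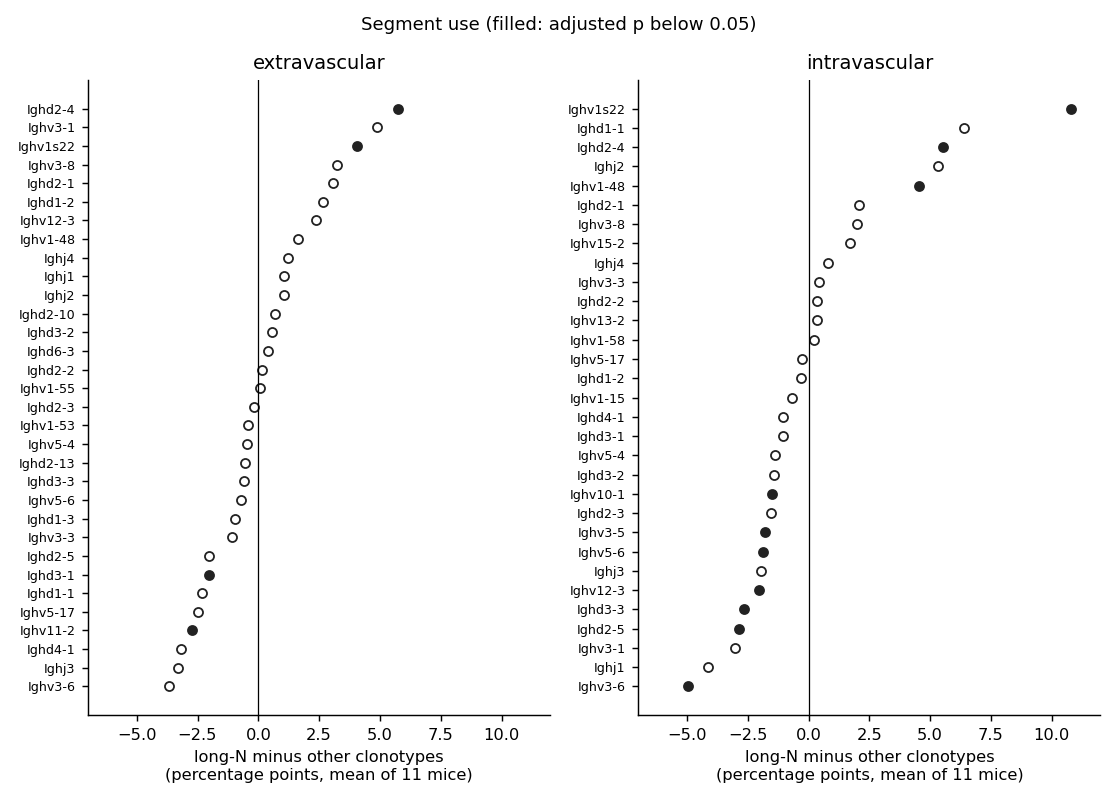
Difference in share (percentage points, mean of 11 mice) of each tested V, D and J segment between long-N and other clonotypes, extravascular left and intravascular right, with filled points for an adjusted p below 0.05. Ighv1s22 lies farthest to the right in the intravascular panel at 10.8 points and Ighv3-6 farthest to the left in both.

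The D name is read from the bases left between V and J after matching, of which N is the remainder, so D names and N length are not independent measures. Ighd1-1, the longest of the D segments placed here at 23 nt (chr12:113482170-113482192), was the most used with 355 long-N clonotypes. By family, Ighd2 took 45.8% and Ighd1 38.4% of long-N clonotypes, against 42.1% and 36.5% of others, whereas Ighd3 took 6.48% against 9.90%, Ighd4 6.97% against 8.998%, Ighd6 2.06% against 1.67% and Ighd5 0.295% against 0.828%. Ighd2-4 was higher among long-N clonotypes in both compartments, at 13.2% ± 5.85 against 7.46% ± 2.86 (10 of 11 mice, exact signed-rank adjusted p = 0.0234) in the extravascular and 14.3% ± 4.75 against 8.75% ± 1.36 (9 of 11 mice, exact signed-rank adjusted p = 0.0303) in the intravascular libraries. Ighd3-1 came out lower in the extravascular libraries, at 0.281% ± 0.632 against 2.31% ± 1.02 in 11 of 11 mice (exact signed-rank adjusted p = 0.0156). It had 1 long-N clonotype in PBS and 1 in UPEC extravascular libraries. In the libraries at 0 the direction is fixed, so no lower share is read from this test. With near-identical clonotypes merged, Ighd2-4 was at 17.9% against 8.94% of extravascular clonotypes and was no longer called (exact signed-rank adjusted p = 0.0786), and Ighd3-1 fell under the filter and was not tested. Ighd3-3 (0.818% against 3.45%) and Ighd2-5 (4.56% against 7.43%) came out lower in the intravascular libraries (exact signed-rank adjusted p = 0.0265 each). Ighd3-3 had 2 long-N clonotypes in PBS and 2 in UPEC intravascular libraries, so no lower share is read for it either. Ighd2-5 was no longer called with near-identical clonotypes merged (-2.44 points, exact signed-rank adjusted p = 0.105). Long-N clonotypes carried Ighj1 in 241, Ighj2 in 348, Ighj3 in 172 and Ighj4 in 257 cases, and none of the 4 passed in any of the 3 segment comparisons. Between long-N and other clonotypes the largest J difference was 5.31 points for Ighj2 in the intravascular libraries (35.4% ± 6.38 against 30.1% ± 1.95, exact signed-rank adjusted p = 0.128). Between compartments, Ighj1 made up 29.1% ± 15.6 of extravascular and 18.7% ± 8.00 of intravascular long-N clonotypes (exact signed-rank adjusted p = 0.258). With near-identical clonotypes merged these shares were 17.4% and 18.9%. Of the 99 clonotypes with germline J inside N, 62 carried Ighj1.

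The CDR3 of long-N clonotypes was longer than that of others, as the rule makes likely, and this was not tested. It had 13.6 ± 0.770 amino acids in the extravascular and 14.3 ± 0.286 in the intravascular libraries, against 11.7 ± 0.207 and 11.8 ± 0.169 in other clonotypes (SD, n = 11). Within PBS mice the long-N CDR3 was shorter in the extravascular fraction. The extravascular means ran from 12.1 amino acids in mouse 1, with a median of 13.3, to 14.0 in mouse 2, and the intravascular means from 13.9 in mouse 3, with a median of 14.4, to 14.5 in mouse 5. The difference was -1.07 amino acids and lower in 6 of 6 mice (exact signed-rank p = 0.03125, adjusted p = 0.075). It was -0.173 with near-identical clonotypes merged, lower in 4 of 6 mice (exact signed-rank p = 0.5625). After UPEC the extravascular means were 13.6, 14.6, 13.2, 14.6 and 14.1 amino acids in mice 1 to 5, 0.827 above PBS (exact Mann-Whitney p = 0.0823). That difference was 0.303 with near-identical clonotypes merged (exact Mann-Whitney p = 0.429) and 0.409 at a threshold of 8 N nt (exact Mann-Whitney p = 0.329), but 1.05 without UPEC mouse 3 (exact Mann-Whitney p = 0.0381) and 0.942 without short-V sequences (exact Mann-Whitney p = 0.0303).

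In residues, the CDR3 of long-N clonotypes held more glycine and less tyrosine than that of others, given here as a description since N bases encode part of it. Glycine made up 13.01% ± 1.29 of extravascular and 12.8% ± 1.41 of intravascular residues, against 10.1% ± 0.863 and 10.0% ± 0.681 in other clonotypes (SD, n = 11). Tyrosine made up 19.0% ± 2.19 and 18.1% ± 1.18, against 21.6% ± 1.18 and 21.1% ± 0.696. Proline was at 2.17% and 2.57% against 1.34% and 1.71%, and glutamate at 2.60% and 2.84% against 1.40% and 1.56%.

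N bases were rich in G and C in both groups and somewhat less so in long inserts. G and C made up 66.4% ± 1.53 of N bases in intravascular long-N clonotypes and 71.5% ± 1.90 in clonotypes with 1 to 9 N nt, lower in 11 of 11 mice by 5.13 points (exact signed-rank p = 0.000977, adjusted p = 0.00586). In the extravascular libraries the shares were 63.7% ± 4.86 and 68.5% ± 2.91, a difference of -4.83 points (9 of 11 mice lower, exact signed-rank p = 0.00684, adjusted p = 0.0205), which was -2.30 points without junctions holding germline J (exact signed-rank p = 0.175). By length, intravascular inserts of 10 to 12 nt held 68.3% G and C and those of 13 to 23 nt held 63.3%, against 72.2% at 4 to 6 nt. G was the leading base in both fields of long-N clonotypes. In N1 it made up 45.9% of extravascular and 46.6% of intravascular bases, in N2 39.1% and 39.0%, while C made up 20.7% and 21.7% of N1 and 22.6% and 25.2% of N2. T was more frequent in N2 (23.0% and 18.9%) than in N1 (12.6% and 13.9%).

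Each sequence identifier carries 9 read counts by constant region. Their list of names is cut after Igha, the first, so the other names were inferred from alphabetical order and could not be checked. Read that way, 852 of the 1018 long-N clonotypes (83.7%) had Ighm and 166 (16.3%) Ighd reads, against 82.8% and 19.2% of other clonotypes. Igha was found in 14 long-N clonotypes (1.38%), against 0.972% of others. Of these 14, 12 were in UPEC extravascular libraries (12 of 199, 6.03%), 1 in a PBS extravascular library (1 of 313), 1 in a PBS intravascular library (1 of 271) and 0 in UPEC intravascular libraries (0 of 235). With 3 clonotypes as the limit, 0 of 235 would allow a share of up to 1.28% if clonotypes were independent. They are grouped by mouse and by 1 nt neighbours, so the true limit is less certain. By mouse the UPEC extravascular share was 3.57%, 0%, 5.71%, 1.75% and 14.0%, so 4 of 5 mice had such clonotypes, against 1 of 6 PBS mice at 2.00%. In other clonotypes of the same UPEC libraries the share was 1.21%, 1.83%, 0.431%, 0% and 5.78%, so mouse 5 was the highest there too. In UPEC mouse 5 the 8 Igha clonotypes included 6 with Ighv1-58, namely the clonotype shown above and 5 others 1 nt away from a clonotype with more reads. The shown Ighv1-58 clonotype had 302 of its 447 reads (67.6%) in Igha and 128 in the field read as Ighg2a, and 0 in those read as Ighm and Ighd. By contrast the largest long-N clonotype of PBS mouse 3 had 385 reads in the field read as Ighm and 33 in that read as Ighd. In the test fixed for this field, the Igha share of long-N minus other clonotypes was 1.10 points in the extravascular (exact signed-rank p = 0.432) and -0.492 points in the intravascular libraries (exact signed-rank p = 0.0645). Only PBS mouse 1 had an intravascular long-N clonotype with Igha. In the libraries at 0 the direction is fixed, so no lower intravascular share is read. For Ighd the differences were -1.84 and -2.25 points (exact signed-rank p = 0.465 and 0.102). Fields read as Ighg1, Ighg2a, Ighg2b, Ighg2c and Ighg3 were above 0 in 2, 3, 6, 1 and 4 long-N clonotypes, and the field read as Ighe in 3.

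Few long-N junctions were found in more than 1 library. Among extravascular clonotypes, 0.915% ± 2.06 of long-N and 4.10% ± 2.37 of other clonotypes were also found in another mouse (SD, n = 11), a mean difference of -3.19 points. In the intravascular libraries the shares were 0% in each of the 11 mice (0 of 506 clonotypes) and 1.97% ± 0.971. With 3 clonotypes as the limit, 0 of 506 would allow up to 0.593% if clonotypes were independent, which clonotypes of the same mouse are not. The long-N share was 0 in 9 of 11 extravascular and 11 of 11 intravascular libraries, and where it is 0 the direction of the difference in a mouse is fixed. The exact signed-rank test was run (p = 0.000977 in each compartment), but no lower sharing is read from it. The long-N clonotypes in more than 1 mouse came to 2 distinct junctions, against 45 among others, and both were Ighv12-3 with Ighj1 in PBS mouse 1 and UPEC mouse 3 extravascular libraries. They were the T38G junction shown above and a T40G neighbour of the same junction without N, so both had germline J inside N. Between the compartments of a mouse 4 long-N clonotypes were shared, all in UPEC mouse 4, against 69 among others. These were the Ighv3-6 junction shown above, an Ighv3-1 junction with 9 extravascular and 2 intravascular sequences, and an Ighv5-17 and an Ighv12-3 junction with 1 sequence in each compartment. That Ighv12-3 junction, annotated with 10 N nt, differed only by T32G from a junction annotated with 5 N nt. The latter had 5 extravascular and 26 intravascular sequences in the same mouse. The Ighv12-3 junction is still counted in the shares that follow. In UPEC mouse 4 the shared part was 7.02% of extravascular and 6.25% of intravascular long-N clonotypes, against 8.90% and 7.93% of others. In the other 10 mice no long-N clonotype was shared between compartments, so the direction is fixed there too, and no lower sharing is read from the mean differences of -1.99 and -1.59 points (exact signed-rank p = 0.00195 in each compartment).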

How the data were processed

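RNA of sorted kidney B cells was reverse transcribed with barcoded primers, amplified with V primers and sequenced on a MiSeq (BCR-seq). According to the methods, the authors filtered reads with QUASR, merged pairs, built a consensus per barcode, matched constant and V and J regions to IMGT, kept only sequences seen in more than 1 read and passed those to IMGT/V-QUEST for annotation. The deposited files hold, per retained sequence, other values than a measured scale: nucleotides, segment names and whole numbers of reads by isotype. No genome build is given, and coordinates are those of GENCODE vM21 on GRCm38. Libraries held 244 to 2134 sequences and 936 to 18956 reads.

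The annotated fields were used as deposited. Clonotypes were counted within a library, and a clonotype was long-N when at least 50% of its sequences were. Compartments were compared by exact signed-rank tests over mice, paired by mouse number as the labels give both compartments of each mouse, treatments by exact Mann-Whitney tests, and segments with on average at least 5 clonotypes (2 long-N clonotypes between compartments) per library were adjusted by Benjamini-Hochberg. Calculations ran in Python 3.11.15 with pandas 2.3.3 and numpy 2.4.6, and the tests were tested on simulated data. In 20 simulated runs with 13 V segments tested, 60% of 3-fold differences in extravascular V segments were recovered, and 0% were falsely called higher. A rate of falsely lower calls is not given. The real extravascular test covered 32 V, D and J segments. Shares there could vary widely between mice, such as 15.1% ± 16.8 for Ighv12-3 among long-N clonotypes. The simulated rates are therefore not read as error rates of the real test. A segment that was not called can still differ. Named segments are the 10 most used, those called, Ighv11-2 and Ighv12-3, all D families and all J. Shown clonotypes are the largest per group, those in several mice or both compartments, and the longest insert. The members, lists and tests were chosen with earlier results of these data known. The germline match, the merging of neighbouring clonotypes and the split by V length were added after seeing the data. Alternatives changed the threshold, P nucleotides, denominator, read weighting, read minimum, clonotype definition, depth, test and filter, and left out each mouse.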

Additional observations from a re-analysis of the deposited data

Results flagged for a closer look

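Of 39 groups of 5 or 6 libraries checked over 11 measures of long-N junctions, 6 held a library far from the others. By chance about 1 group in 20 is marked where values spread evenly around a mean, but in each of these 6 the other libraries of the group stood at 0, where any single value above 0 is marked. The Igha share of long-N clonotypes was 2.00% in PBS mouse 6 extravascular and 1.72% in PBS mouse 1 intravascular, 1 clonotype each, against 0% in the rest of their groups. The share of long-N clonotypes also in another mouse was 4.35% in PBS mouse 1 extravascular and 5.71% in UPEC mouse 3 extravascular, both from the same pair of Ighv12-3 junctions. The share also found in the other compartment was 7.02% in UPEC mouse 4 extravascular and 6.25% in UPEC mouse 4 intravascular.

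The compartment difference was compared between treatments for the same 11 measures by exact permutation of the treatment labels, and 2 differed before adjustment and none after it. The Igha share of long-N clonotypes was 0.0460 points higher in the extravascular fraction of PBS mice and 5.02 points higher in that of UPEC mice, a change of 4.97 points (exact permutation p = 0.0238, adjusted p = 0.190), higher in 4 of 5 UPEC mice. Without UPEC mouse 5 the change was 2.71 points (exact permutation p = 0.0524), and leaving out each mouse in turn gave 2.71 to 6.22 points. In other clonotypes the change was 0.734 points (exact permutation p = 0.524), and with near-identical long-N clonotypes merged it was 5.06 points (exact permutation p = 0.0455). The Ighd share of long-N clonotypes was 12.8 points lower in the extravascular fraction of PBS mice, in 6 of 6 mice, and on average 6.86 points higher in that of UPEC mice, in 2 of 5 mice, a change of 19.6 points (exact permutation p = 0.0346, adjusted p = 0.190). With near-identical long-N clonotypes merged the change was 17.6 points (exact permutation p = 0.149), and in other clonotypes it was 14.5 points (exact permutation p = 0.00649). UPEC mouse 1 extravascular had the highest Ighd share of long-N clonotypes, 53.6%, and without that mouse the UPEC difference was -0.494 points and the change 12.3 points (exact permutation p = 0.0952).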

How the results depend on the processing

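Of 659 values recomputed under another setting, 571 counted as unchanged. This means the same direction and side of an unadjusted p of 0.05, or a count within 1.5 times. Of the rest, 36 no longer passed, 11 newly passed, 25 changed sign and 16 counts moved by more. The setting limited to sequences with a single D name kept every sequence. Its values are among the 571 and could not differ from the main ones. The cause of these changes was not tested, apart from fewer mice. Throughout, differences are extravascular minus intravascular, UPEC minus PBS, or long-N minus other clonotypes, in percentage points unless stated. At a threshold of 8 N nt, the PBS difference in long-N sequences was -7.31, the PBS CDR3 difference -0.635 amino acids and the intravascular Igha difference -0.555, which passed but is not read as a lower share. At 12 N nt these became -2.70 for PBS sequences, 0.354 for intravascular clonotypes between treatments, -0.311 for intravascular sequences per clonotype and -5.40 for intravascular Ighd, with 2 extravascular and 4 intravascular segments called. With P nucleotides added, PBS sequences differed by -7.58, intravascular clonotypes between treatments by 0.336, Ighd by 0.335 extravascular and -4.19 intravascular, and intravascular Igha by -0.573. With at least 3 reads per clonotype, the UPEC clonotype difference was -0.104 and 4 intravascular segments were called. With variants of 1 nt merged within clonotypes, PBS sequences differed by -2.76 and intravascular sequences between treatments by -0.303. Without a filter, 0 extravascular segments passed by the exact signed-rank test (4 with the filter, where 8 had an unadjusted p under 0.05) and 4 intravascular segments did.

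In the test without the replicate block, that is without pairing by mouse or library, the PBS difference in sequences stayed at -5.98 (exact p = 0.00216), intravascular Igha at -0.492 passed (permutation p = 0.00126) and 2 extravascular segments were called. The same Igha difference, -0.492, also passed by permutation of means (exact permutation p = 0.0254). Only PBS mouse 1 had an intravascular long-N clonotype with Igha, so the direction is fixed in the libraries at 0. No lower Igha share is therefore read from any setting in which this difference passed. The intravascular segments called went from 10 to 9, and no other single-value test changed its side of the threshold without the block.

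In PBS mice alone extravascular Igha differed by -0.630, sharing between compartments by -1.25 and -1.10, and intravascular sequences per clonotype by -0.402. In UPEC mice alone, where 5 pairs cannot pass, sequences per clonotype differed by -1.31 and -0.319, G and C of N by -2.91 and -5.72, sharing between mice by -3.25 and -2.05, and sharing between compartments by -2.88 and -2.18 (extravascular and intravascular). No segment was called in either treatment alone (0 in each compartment by the exact signed-rank test), where 5 pairs cannot give a call and 6 pairs could after adjustment only if most segments reached the smallest p.

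The remaining settings were chosen after seeing the data. With clonotypes 1 nt apart merged, long-N clonotypes differed by -1.94 in PBS, -0.738 in UPEC, 0.0774 between treatments in the extravascular fraction and 1.21 in the change of the compartment difference, PBS CDR3 length by -0.173 amino acids and extravascular Ighd by 2.67, with 2 extravascular segments called. Without junctions holding germline J, the clonotype differences were -1.10 in PBS, 0.856 between treatments and 1.17 in the change, extravascular G and C differed by -2.30 and extravascular Ighd by 0.140. Without short V, sequences differed by -4.69 in PBS and 0.240 in UPEC, extravascular CDR3 length between treatments by 0.942 amino acids, which passed, and intravascular Ighd by 2.34, with 0 intravascular segments called.

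Leaving out each mouse in turn gave -6.67 to -5.17 for PBS sequences and -1.19 to -0.898 amino acids for PBS CDR3 length, where 5 pairs cannot pass. It gave -3.04 to 0.826 for UPEC sequences, -0.944 to 1.65 for UPEC clonotypes, -0.171 to 1.27 for intravascular sequences and -0.880 to 0.586 for intravascular clonotypes between treatments, 2.94 to 6.81 for the change in the sequence difference, and 0.608 to 1.05 amino acids for extravascular CDR3 length between treatments. Intravascular Igha ranged from -0.652 to -0.428 and Ighd from -3.36 to -1.43, both passing without PBS mouse 1, and intravascular segments called from 0 to 9. Without that mouse no intravascular library held a long-N clonotype with Igha, so no lower Igha share is read there. Libraries of 22 to 75 long-N clonotypes limit every share given here.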

Other observations

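Among the 393 sequences without an annotated D segment, which fell outside the comparisons, 8 had a single N field of 10 nt, the longest there, and all 8 were in 2 PBS libraries, 3 in an extravascular and 5 in an intravascular one. Over all clonotypes, 20.9% of 1614 Ighv1, 14.6% of 2830 Ighv3, 10.8% of 809 Ighv5 and 4.11% of 146 Ighv11 clonotypes were long-N, given without a test. Among clonotypes with a V of 100 nt or more, the shares were 14.1% of 896 for Ighv1, 14.6% of 2824 for Ighv3 and 10.5% of 790 for Ighv5.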
